A study of Mus musculus with 4 samples.

Results

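The subject is a set of 34 p53 target genes in Beta-TC-6 cells depleted of NF45. The line was established from mouse pancreatic beta cells. NF45, the product of Ilf2, pairs with NF90 in a complex that acts on double-stranded RNA. The list of names was drawn up with earlier results of these data known, and each gene was read from the probe set that carries its symbol and no other. Of the 34 genes, 30 were measured in this way among 22180 genes in all. Gadd45a and Ddb2 lay on probe sets that carry a second symbol and were left out by that rule, and Fdxr and Gdf15 were not analysed here.

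RNA came from cells transfected with a negative control siRNA (siNTC, 2 arrays) or with a mixture of duplexes that target NF45 (siNF45, 2 arrays). All 4 samples shared the cell line, the high-glucose medium and the lipid transfection reagent. The time after transfection was not given in the sources used here, and nothing states that replicates were transfected separately. The p-values therefore cover the spread among these 4 samples, part or all of which may be technical. The model is 1 cell line and 1 mixture of duplexes, so effects of a single duplex on other transcripts cannot be told apart from loss of NF45.

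The transcription factor p53 is held at a low level by the ubiquitin ligase Mdm2, and stress such as DNA damage frees it to bind response elements near its target genes. Those targets include inhibitors of the cell cycle, death receptors and other apoptosis genes, DNA repair genes, and Mdm2 itself, which closes a feedback loop. Beta-TC cells were derived from a tumour of mice that carry the large T antigen of SV40 under an insulin promoter, and T antigen binds p53 and blocks its activity as a transcription factor. T antigen itself was not analysed here. A response element is built of a pair of half-sites of 10 bases each.

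The promoter sequences below show where a p53 response element can be read in the stretch before the start of members, and where it cannot. RefSeq promoter windows of GRCm38.p6, each from 250 bases before to 50 after a transcript start, were found for 25 of the 34 members. The p53 response element consensus, 20 bases with no spacer, was searched on both strands with up to 2 mismatches, a limit chosen after the sequences were seen. It was present in at least 1 window of 4 members, Cdkn1a, Ccng1, Ckap2 and Trp73, which is 16.0% of the 25. Among all 27025 genes with a window, 0.940% held it. Gadd45a, Tigar, Bbc3, Aen, Polk and Sesn1 lay just outside the limit, with 3 mismatches at best. A match describes the letters only, and its absence says only that they are not in this window. Below are the 250 bases before the start, 5′ to 3′ on the strand of the gene, with the matched element in capitals. The first 3 hold an element. Plk2 and Mdm2 are shown because they had the largest differences among the members that have a window, and their windows held no match.
Cdkn1a, upstream start, chr17:29090729-29090978 (+): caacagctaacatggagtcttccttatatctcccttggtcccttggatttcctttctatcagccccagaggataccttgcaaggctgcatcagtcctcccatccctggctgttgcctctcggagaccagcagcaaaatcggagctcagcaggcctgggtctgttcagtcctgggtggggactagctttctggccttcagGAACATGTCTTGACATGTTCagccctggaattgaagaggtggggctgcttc
Ccng1, chr11:40755287-40755536 (-): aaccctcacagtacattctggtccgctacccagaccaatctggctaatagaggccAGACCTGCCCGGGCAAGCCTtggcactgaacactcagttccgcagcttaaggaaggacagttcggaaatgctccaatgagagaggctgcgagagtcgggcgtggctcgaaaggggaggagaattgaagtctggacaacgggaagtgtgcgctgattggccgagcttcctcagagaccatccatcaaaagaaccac
Ckap2, chr8:22185820-22186069 (-): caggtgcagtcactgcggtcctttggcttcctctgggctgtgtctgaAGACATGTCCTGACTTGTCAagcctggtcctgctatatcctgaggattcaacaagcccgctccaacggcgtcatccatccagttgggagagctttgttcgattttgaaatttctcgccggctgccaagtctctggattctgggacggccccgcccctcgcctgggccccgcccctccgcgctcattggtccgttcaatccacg
Plk2, chr13:110394794-110395043 (+): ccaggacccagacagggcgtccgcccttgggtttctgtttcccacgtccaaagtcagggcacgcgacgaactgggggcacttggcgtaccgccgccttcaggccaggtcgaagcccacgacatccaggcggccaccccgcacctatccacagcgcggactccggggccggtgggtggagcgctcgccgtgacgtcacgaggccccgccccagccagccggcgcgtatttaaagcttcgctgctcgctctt
Mdm2, chr10:117710759-117711008 (-): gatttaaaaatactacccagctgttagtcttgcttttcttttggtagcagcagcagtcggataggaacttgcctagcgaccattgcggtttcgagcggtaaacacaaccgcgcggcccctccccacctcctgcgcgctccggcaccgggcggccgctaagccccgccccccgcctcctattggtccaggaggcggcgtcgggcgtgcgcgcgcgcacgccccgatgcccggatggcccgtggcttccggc

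The Cdkn1a element begins 51 bases before the more upstream of 2 annotated starts and has 1 mismatch to the consensus. That of Ccng1 begins 195 bases before the start and also has 1 mismatch, and that of Ckap2 begins 203 bases before it with 2. The fourth, in a window of Trp73, reads GGGCAAGCTGAGGCCTGCCC with 2 mismatches. The p53-responsive promoter of Mdm2 is known to lie in its first intron, outside the window printed here. No window was matched for Trp53inp1, Tnfrsf10b, Perp, Zmat3, Rrm2b, Pmaip1, Ptprv, Trp53cor1 or Ddb2.

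Of the 30 measured genes, Trp53inp1 rose upon NF45 depletion and no other member passed the test over all genes. Values are the log2 expression values deposited by the authors, differences are siNF45 minus siNTC, and a gene was called at a limma adjusted p under 0.05 over 11742 genes whose mean reached a signal filter of 1.65. Called genes made up 0.0852% of those tested, 10 in all, and genes called higher 0.00852%, which is Trp53inp1 alone. Under 4 other settings of the filter, scaling or prior, 17 to 71 genes were called higher. The smallest two-sided p that an exact permutation test of a single gene can give here, with 2 arrays against 2, is 0.333. Ilf2 itself, at 5.79 and 5.98 in siNTC, read 3.67 and 3.77 in siNF45, which is 4.48-fold lower (limma adjusted p = 0.020).

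**Figure D1:**
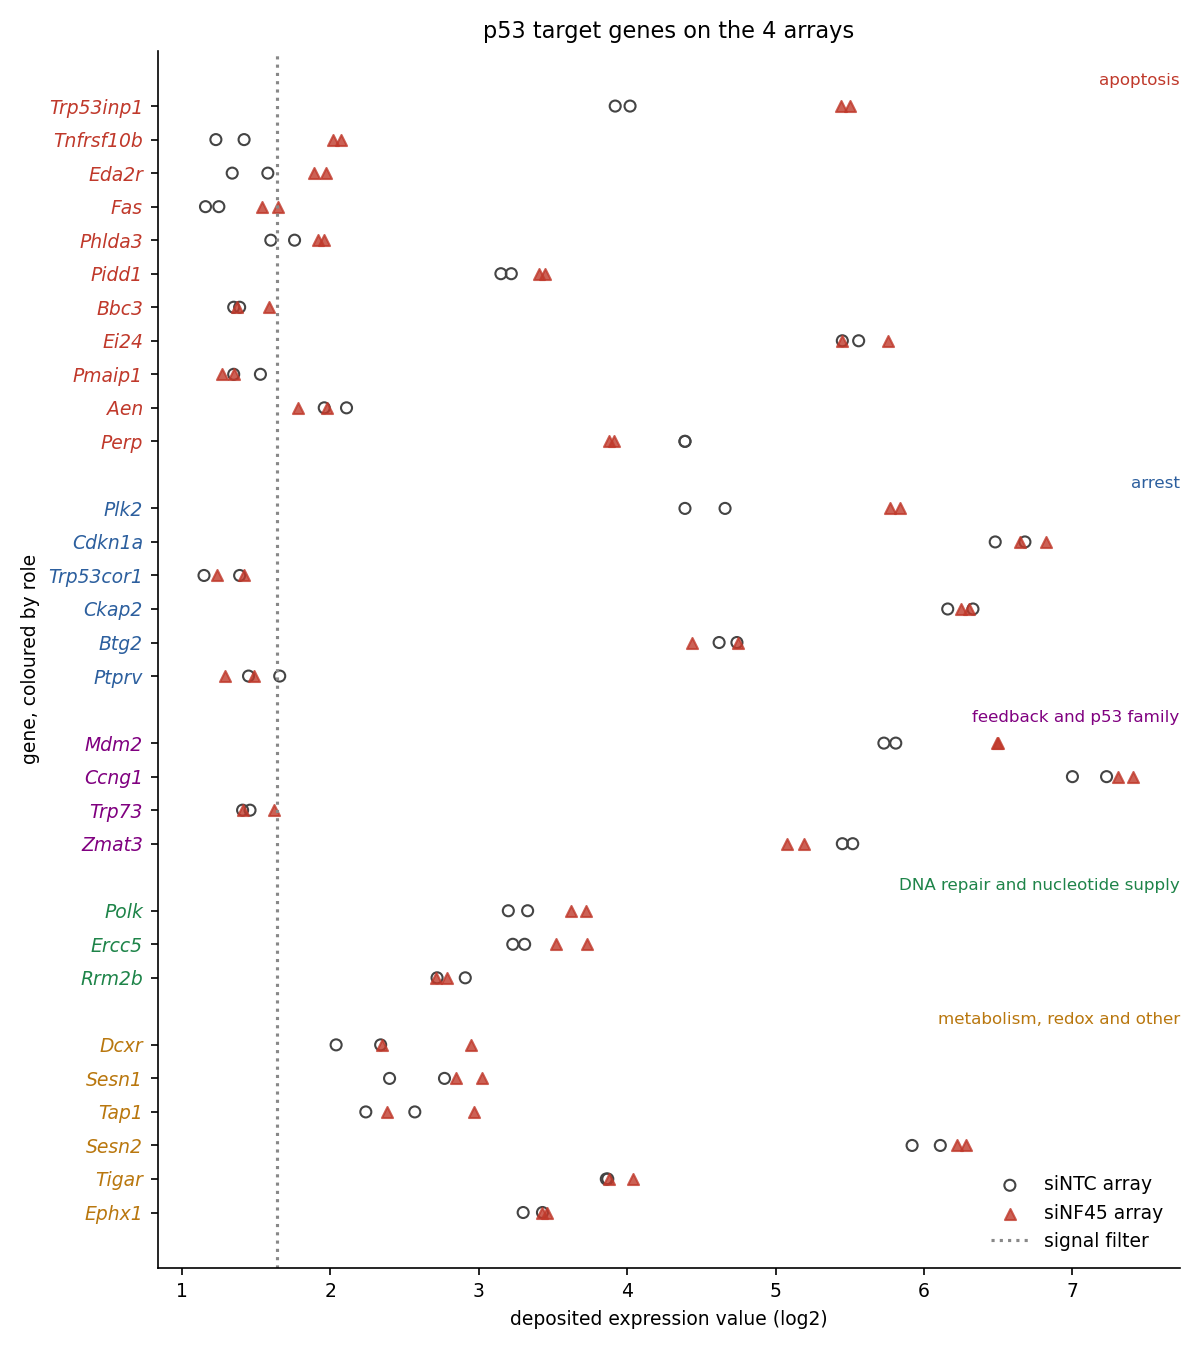
Deposited log2 value of each of the 30 measured p53 target genes (rows, grouped and coloured by role) on the 2 siNTC arrays (circles) and the 2 siNF45 arrays (triangles); the dotted line is the signal filter of 1.65. Trp53inp1 and Plk2 show the widest gaps between the groups, and 6 genes lie below the filter.

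The members leaned to higher values in siNF45, mostly by small amounts. Because the list was drawn up with earlier results of these data known, this lean is a description and no test. Over the 30 measured genes the median difference was 0.20 and 23 lay above 0, where 48.5% of all 22180 measured genes lay above 0 around a median of -0.01. Both siNF45 arrays read above both siNTC arrays in 15 members, against 19.2% of all measured genes, and below them in 2 members, against 22.7%. When each array was centred on its median over the tested genes, which adds 0.13 to every difference, 25 members and 72.1% of all genes lay above 0, so these shares depend on the scaling. After quantile normalization they were 23 members and 48.2%. A separate list of further p53 targets, taken up below, had a median of 0.03 with 9 of 15 above 0.

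At least 1 higher, a limit chosen after the values were seen, were 2 members, Trp53inp1 and Plk2, among 18 genes in all, or 0.0812%. Without the signal filter, 8 members were higher and 2 lower at an unadjusted p under 0.05, where 4.22% of genes were higher and 8.27% lower. With the filter, 24 members were tested. The 6 below it were Bbc3, Pmaip1, Fas, Ptprv, Trp53cor1 and Trp73. The counts above 0, here and by role, include these 6. Tnfrsf10b and Eda2r passed the filter only through their siNF45 arrays, so no p is given for either. Both count among the 8 higher members of the fit without the filter.

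**Figure D2:**
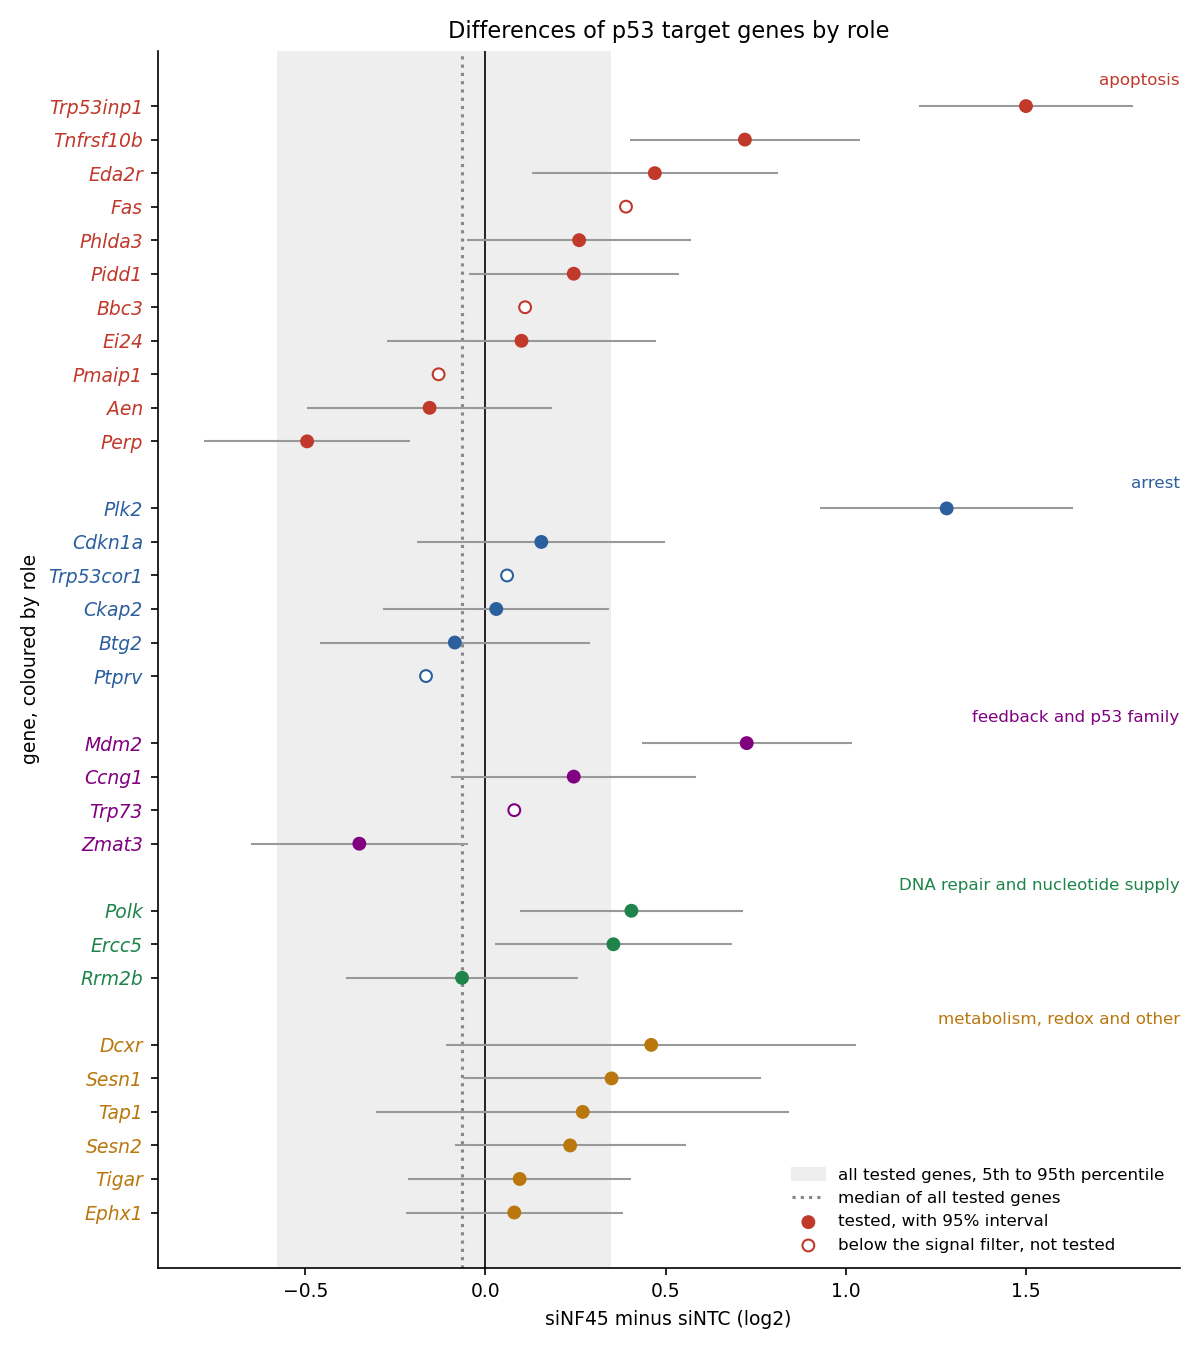
Difference siNF45 minus siNTC (log2) of each p53 target gene by role, with the 95% interval of the limma fit for the 24 tested genes (filled) and no interval for the 6 below the signal filter (open). The band spans the 5th to 95th percentile of all tested genes, from -0.58 to 0.345. By definition about 5% of tested genes lie to its right. So do 10 members, from Sesn1 at 0.35 to Trp53inp1 at 1.50, and Fas among them was not tested. Tnfrsf10b and Eda2r entered the fit only through their siNF45 arrays, so their intervals are no test of a difference.

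Among the apoptosis targets, 8 of 11 lay above 0 and the median difference was 0.25. Trp53inp1, a nuclear protein that works with the kinase Hipk2 on p53 and takes part in autophagy, read 4.02 and 3.92 in siNTC and 5.50 and 5.44 in siNF45. The groups lay far apart beside a spread of 0.10 at most within a group. It rose from 3.97 ± 0.07 to 5.47 ± 0.04 (SD, n = 2 each), a difference of 1.50 (SE 0.12, 95% interval 1.20 to 1.80) or 2.83-fold (limma adjusted p = 0.038). It had the smallest p of the 4434 tested genes with a positive difference. The difference was 1.45 to 1.63 after quantile normalization, after centring and without 1 array, the alternatives that can change it. The call was lost, at a limma adjusted p of 0.258 to 0.471, with the replicate number as a block and in each fit that left out 1 array.

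Death receptors were dim in siNTC. Tnfrsf10b, the mouse TRAIL receptor, read 1.23 and 1.42 in siNTC and 2.02 and 2.07 in siNF45. The siNTC values lay below the signal filter and the siNF45 values above it. The values differed by 0.72. Fas, the receptor of Fas ligand, stayed below the filter in its mean and had no test, with 1.25 and 1.16 in siNTC against 1.54 and 1.65 in siNF45, a difference of 0.39. The groups did not overlap in either receptor. Eda2r, the ectodysplasin receptor of the same family, read 1.34 and 1.58 against 1.89 and 1.97, a difference of 0.47, again with siNTC below the filter.

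The classical mitochondrial death genes of p53 were too dim to be tested. Bbc3, which encodes PUMA, read 1.39 and 1.35 in siNTC and 1.59 and 1.37 in siNF45. Pmaip1, which encodes NOXA, read 1.53 and 1.35 against 1.27 and 1.35. In both genes the groups overlapped. Pidd1, which assembles the platform that activates caspase-2, read 3.22 and 3.15 against 3.45 and 3.41, a difference of 0.25 (95% interval -0.05 to 0.54). Phlda3, a competitor of Akt for membrane lipids, read 1.60 and 1.76 against 1.92 and 1.96, a difference of 0.26 (-0.05 to 0.57). The groups of these 2 genes did not overlap, and their intervals span 0. Ei24 differed by 0.10 (-0.27 to 0.47) and the nuclease Aen by -0.16 (-0.49 to 0.18), both with overlapping groups.

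Perp, a membrane protein of desmosomes that p53 induces in apoptosis, went the other way. It read 4.39 and 4.39 in siNTC and 3.88 and 3.91 in siNF45. The replicates differed by 0.03 at most and the groups did not overlap. The difference was -0.50 (SE 0.12, 95% interval -0.78 to -0.21) and did not pass, at a limma adjusted p of 0.143. Among the 7202 tested genes with a negative difference its p ranked at 389. It stayed below 0, from -0.51 to -0.37, after quantile normalization, after centring and without 1 array, the alternatives that can change its difference.

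The arrest targets differed among themselves. Plk2, a polo-like kinase that acts in the G1 phase and at centrioles, read 4.66 and 4.39 in siNTC and 5.84 and 5.77 in siNF45. The difference of 1.28 (SE 0.14, 95% interval 0.93 to 1.63), or 2.43-fold, was several times the spread of 0.27 between the siNTC arrays, and the limma adjusted p was 0.071. Its p ranked at 5 among the tested genes with a positive difference. Plk2 passed the threshold at the 70th percentile filter (limma adjusted p = 0.041), after quantile normalization (0.029), after centring (0.0061) and with a trend in eBayes (0.013), and its limma adjusted p reached 0.471 without 1 array.

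Cdkn1a, which encodes p21, the inhibitor of cyclin-dependent kinases through which p53 arrests the cell cycle, read 6.68 and 6.48 in siNTC and 6.82 and 6.65 in siNF45. The groups overlapped. The difference of 0.16 had a 95% interval from -0.19 to 0.50 (limma adjusted p = 0.622). Its upper end lay below the differences of Plk2 and Trp53inp1, but it covers only the spread among these 4 samples. Whether Cdkn1a differs from those 2 genes was not tested. The window printed above for Cdkn1a holds the element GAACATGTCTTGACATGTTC. Ckap2, a spindle protein, differed by 0.03 (-0.28 to 0.34) and its groups overlapped. The antiproliferative factor Btg2 read 4.62 and 4.74 against 4.75 and 4.44, and its difference of -0.09 (-0.46 to 0.29) turned to 0.045 after centring. The phosphatase gene Ptprv read 1.45 and 1.66 against 1.29 and 1.49, and the long noncoding RNA Trp53cor1, known as lincRNA-p21, 1.15 to 1.42, both below the filter. Over the 6 measured arrest targets the median was 0.05, with 4 above 0 and 2 below.

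Among the feedback genes, Mdm2 read 5.73 and 5.81 in siNTC and 6.49 and 6.50 in siNF45. The replicates lay within 0.08 of each other and the groups were clearly apart. The difference was 0.73 (SE 0.12, 95% interval 0.43 to 1.02) or 1.65-fold (limma adjusted p = 0.090). It passed after centring (limma adjusted p = 0.036) and with a trend in eBayes (0.019), and its limma adjusted p was 0.258 with the replicate block and reached 0.471 without 1 array. Its p ranked at 22 among tested genes with a positive difference. Ccng1, which encodes cyclin G1, a partner of Mdm2 in restraining p53, read 7.00 and 7.23 against 7.41 and 7.31, a difference of 0.25 (95% interval -0.09 to 0.58). Its groups did not overlap, but the gap between them was smaller than the spread within siNTC.

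Zmat3, a zinc finger protein that binds RNA and acts in splicing and on the p53 transcript, was lower. It read 5.52 and 5.45 in siNTC and 5.19 and 5.08 in siNF45, without overlap. The difference was -0.35 (SE 0.12, 95% interval -0.65 to -0.05) and did not pass, at a limma adjusted p of 0.241. Trp73, which encodes the p53 relative p73, stayed below the filter at 1.41 and 1.46 against 1.41 and 1.62. The 4 genes of this group had a median of 0.16, and 3 lay above 0.

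In the DNA repair group 3 genes were measured. Polk, a DNA polymerase that copies past lesions, read 3.20 and 3.33 in siNTC and 3.62 and 3.72 in siNF45, a difference of 0.41 (SE 0.12, limma adjusted p = 0.207). Ercc5, which encodes the XPG nuclease of nucleotide excision repair, read 3.31 and 3.23 against 3.52 and 3.73, a difference of 0.36 (SE 0.13, limma adjusted p = 0.262). The groups did not overlap in either gene. Rrm2b, the p53-inducible subunit of ribonucleotide reductase, read 2.72 and 2.91 against 2.79 and 2.71, and its difference of -0.07 (95% interval -0.39 to 0.26) turned to 0.065 after centring. The median of the 3 genes was 0.36.

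All 6 measured genes of the metabolism and redox group lay above 0, from 0.08 to 0.46 with a median of 0.25, and none passed. The sestrins, which restrain mTORC1 and limit oxidants, were both without overlap, but each gap was smaller than the spread within siNTC. Sesn1 read 2.77 and 2.40 in siNTC and 2.85 and 3.02 in siNF45, a difference of 0.35 (95% interval -0.06 to 0.76). Sesn2 read 6.11 and 5.92 against 6.28 and 6.22, a difference of 0.24 (-0.09 to 0.56). The reductase gene Dcxr read 2.34 and 2.04 against 2.95 and 2.35, where the siNF45 arrays differed from each other by more than the groups did. Tap1, the peptide transporter of antigen presentation, read 2.57 and 2.24 against 2.38 and 2.97, with overlap. Tigar, a phosphatase that slows glycolysis, differed by 0.10 (-0.21 to 0.40) and the epoxide hydrolase Ephx1 by 0.08 (-0.22 to 0.38). The median of this group was 0.14 without siNTC replicate 2 and 0.38 without siNTC replicate 1. Whether the 5 roles differ from each other was not tested.

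**Figure D3:**
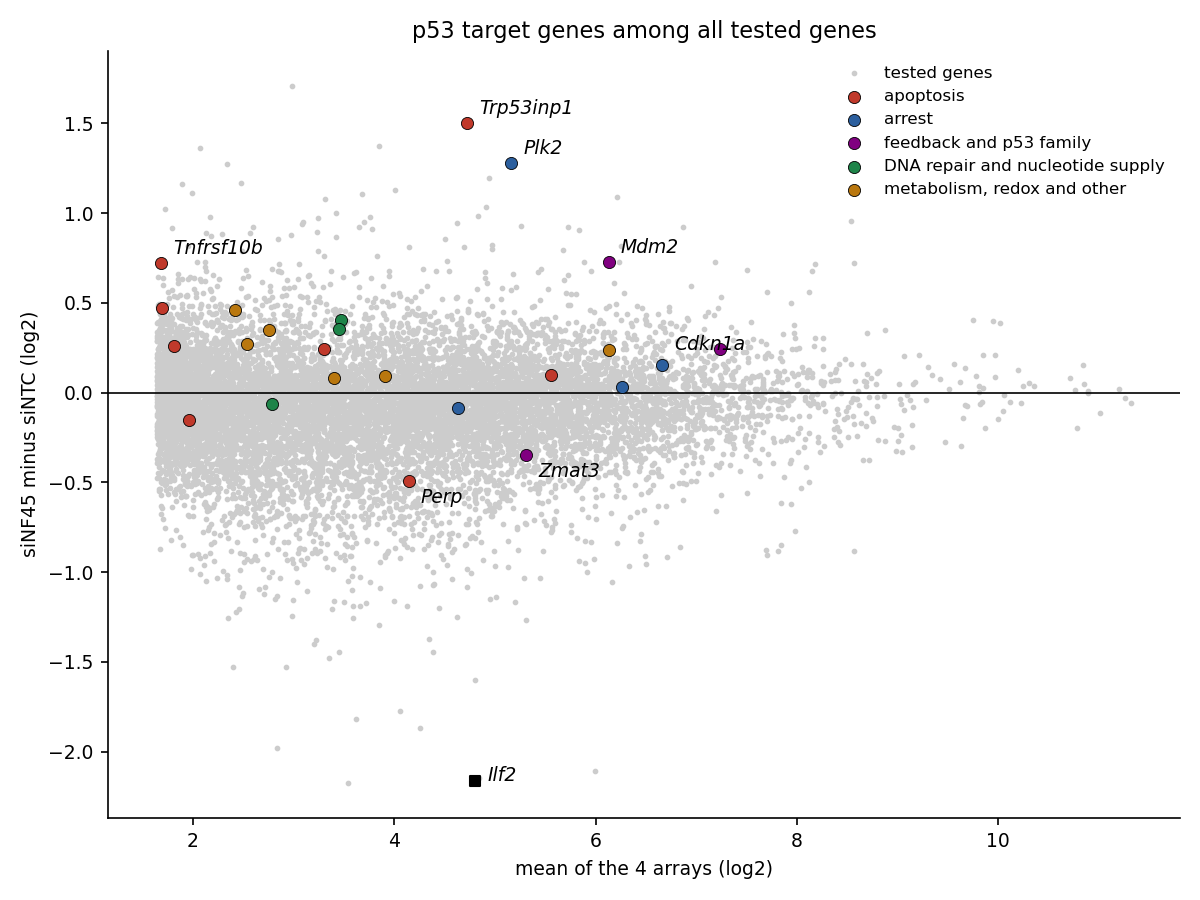
Mean of the 4 arrays (log2, horizontal) against the difference siNF45 minus siNTC (log2, vertical) for the 11742 tested genes (grey), with the 24 tested p53 targets coloured by role and Ilf2 as a square. Trp53inp1 at 1.50 and Plk2 at 1.28 lie at the upper edge, and Cdkn1a at 0.16 lies within the bulk.

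The upstream side of the pathway was followed in a list of 22 regulators of p53 and DNA damage kinases, of which Trp53 was not analysed here. Of 21 measured, 10 lay above 0 and 11 below, the median was -0.02 and none passed. Mdm4, the partner of Mdm2 that masks the transactivation domain of p53, read 4.85 and 4.77 in siNTC and 4.64 and 4.95 in siNF45, with overlap (difference -0.02, 95% interval -0.38 to 0.35, and above 0 after quantile normalization and after centring). The members with the smallest p were the corepressor Trim28 at -0.33 (SE 0.12, limma adjusted p = 0.245), the kinase Atr at -0.35 (SE 0.14), the ubiquitin ligase Rchy1 at 0.33 (SE 0.15) and the deubiquitinase Usp10 at -0.22 (SE 0.13). As the mean of its probe sets, Atr stood at -0.25 (limma adjusted p = 0.390). The kinase Atm differed by -0.06 (95% interval -0.37 to 0.25) and Cdkn2a, the locus of the Mdm2 inhibitor ARF, by -0.04 (-0.35 to 0.27).

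A separate list held further p53 targets that are not members, and Bax was not analysed here. Of the 15 measured, 9 lay above 0, the median was 0.03 and none passed. The thiamine transporter Slc19a2 read 4.08 and 4.11 in siNTC and 4.55 and 4.46 in siNF45, a difference of 0.41 (SE 0.12, limma adjusted p = 0.190). Apaf1, the scaffold of the apoptosome, differed by 0.25 (SE 0.15), Sfn, which encodes 14-3-3 sigma, by 0.42 (SE 0.26) and Rps27l by 0.26 (SE 0.17). Sfn read 2.25 and 1.47 in siNTC and 2.32 and 2.24 in siNF45, with overlap. Its difference was 0.03 without siNTC replicate 2 and 0.81 without siNTC replicate 1, and that of Rps27l was 0.05 and 0.46. Apaf1 differed by 0.085 without siNF45 replicate 1 and by 0.405 without siNF45 replicate 2. The phosphatase Ppm1d, a feedback inhibitor of p53, differed by -0.06 (95% interval -0.38 to 0.26). The difference between this median and the 0.20 of the members was not tested.

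Another list held 15 cell cycle genes that p53 lowers through p21 and the DREAM repressor, of which Ccnb1 was not analysed here. Of 14 measured, all of them tested, 11 lay below 0, where 7202 of the 11742 tested genes did. The median was -0.14, against -0.07 for all tested genes, and none passed. Birc5, which encodes survivin, read 5.04 and 4.76 in siNTC and 4.31 and 4.05 in siNF45, a difference of -0.72 (SE 0.16, limma adjusted p = 0.135). The transcription factors Mybl2 at -0.61 (SE 0.15) and E2f1 at -0.40 (SE 0.14) and the checkpoint kinase Bub1 at -0.24 (SE 0.15) came next by p. As the mean of its probe sets, Mybl2 stood at -0.27 (limma adjusted p = 0.357). Top2a, Cdc20, Ccnb2 and Cdc25c lay between -0.05 and 0.08.

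**Figure D4:**
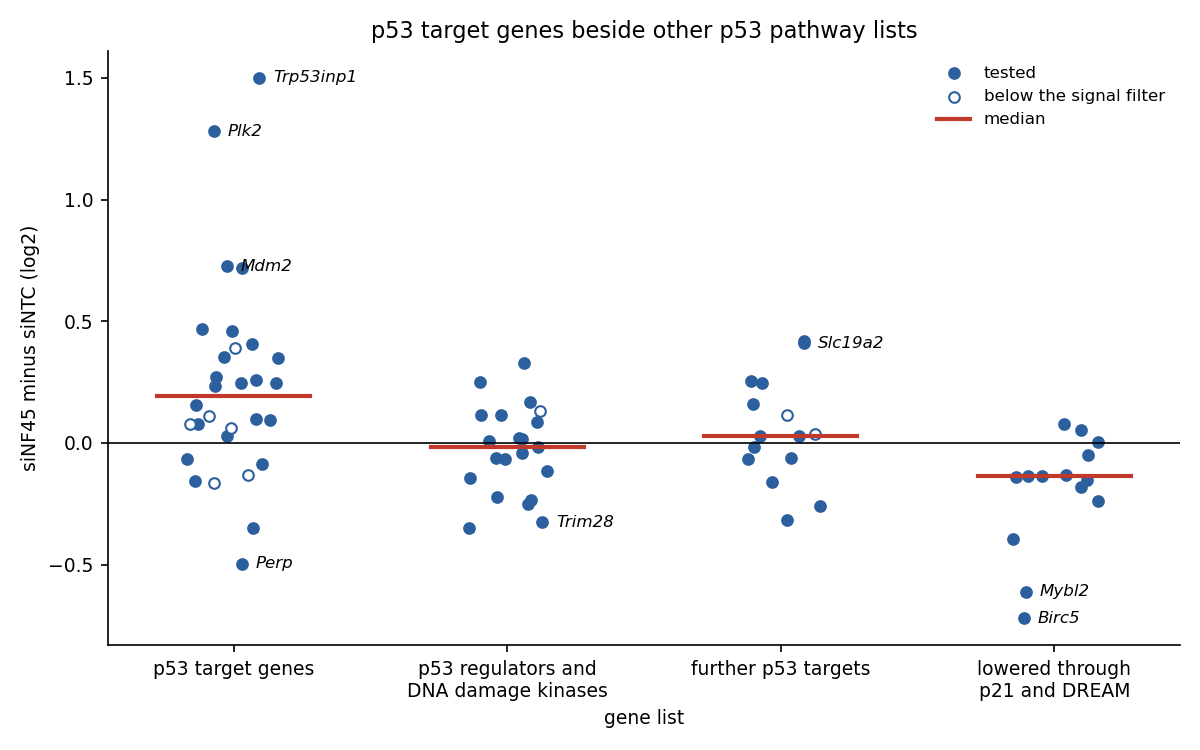
Difference siNF45 minus siNTC (log2) of each gene in the p53 target list and in the lists of p53 regulators, further p53 targets and genes lowered through p21 and DREAM; the bar is the median of the measured genes and open points lie below the signal filter. The medians are 0.20, -0.02, 0.03 and -0.14.

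Facts of the arrays touch these results. Array medians over all probe sets were 1.64 to 1.66 and the replicates correlated at 0.982 (siNTC) and 0.975 (siNF45) across probe sets, which are not independent. Each summed level below takes all measured markers of its list, also those below the filter, and the brightest weigh most. Of 9 measured beta cell markers 8 reached the filter, all but Ucn3. The summed level of the 9 was 11.06 to 11.15 in siNTC and 11.08 to 11.10 in siNF45 (log2), where Iapp alone read 10.09 to 10.17. Of these 9 markers 7 lay below 0, and the prohormone convertase Pcsk1 read 7.01 and 7.14 against 6.62 and 6.66 (difference -0.44, limma adjusted p = 0.180). Of 5 markers of other islet cells, Gcg, Sst and Ppy reached the filter. The summed level of the 5 was lower on both siNF45 arrays, 8.96 and 8.86 against 9.66 and 9.32. Sst differed by -0.89, Gcg by -0.02 and Ppy by 0.52. Of 5 exocrine and duct markers only Krt7 reached it, at 0.67 (limma adjusted p = 0.132), and the summed level was 4.19 to 4.34 in siNTC and 4.61 to 4.64 in siNF45. Of 8 endothelial, immune and mesenchymal markers, only Cd68 and Col1a2 reached it. The summed level of the 8 was 4.44 to 4.50 over the 4 arrays, made up mostly of values below the filter. The part of these shifts in the p53 target values was not tested. In such bulk samples fewer cells of a kind and less RNA per cell cannot be told apart.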

How the data were processed

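Total RNA was hybridised to 4 Affymetrix Mouse Gene 2.1 ST arrays, 1 per sample. The authors deposited log2 values, 1 for each probe set on each array. They used Transcriptome Analysis Console, per the submitters' processing notes. Its version, the algorithm and the background correction were not stated there. The base of the logarithm was inferred from the range of values (0.12 to 12.21), so all folds rest on it.

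Of 41345 probe sets, 23521 carried 1 gene symbol, 1814 several and 16010 none in the platform annotation. For each gene the brightest probe set was kept. All 30 measured members had 1 probe set each. Genes whose mean reached 1.65, the median over probe sets, were tested (11742) with limma 3.58.1 in R 4.3.3 (lmFit, eBayes, no covariate) and Benjamini-Hochberg adjustment. Medians and counts over lists use all measured genes, with no filter. The number of arrays limits the precision. The fitting code was tested on simulated data.

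The members and lists were chosen with earlier results of these data known. Values on every array are printed for members with an unadjusted p under 0.05, for Cdkn1a, Bbc3, Pmaip1 and Fas, and for the largest differences of each role. Of each other list the 4 genes with the smallest p are named, with Mdm4. Further genes of these lists were named after their values were seen. Alternatives changed the signal filter (none, or the 70th percentile), the scaling (quantile normalization, centring) and the eBayes prior (trend, robust), added a replicate block, averaged probe sets, or left out each array in turn. Counts at an unadjusted p were added after the data were seen.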

Additional observations from a re-analysis of the deposited data

How the results depend on the processing

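As deposited, 10 of 11742 tested genes passed (0.0852%), and 1 of them, Trp53inp1, was among the 24 tested p53 targets. At the 70th percentile filter 87 genes and 2 p53 targets passed, and after quantile normalization 62 and 2. After centring 172 and 4 passed, and with a trend in eBayes, over the same 11742 genes, 174 and 3. All of these p53 targets were higher. The 70th percentile filter left Tnfrsf10b, Eda2r, Aen, Phlda3, Dcxr and Tap1 untested. The numbers of genes tested there and after a change of scaling are not given here, so those counts carry no share. With the replicate block, 0 of the same 11742 genes and 0 of the 24 p53 targets passed. There limma gave 1909 genes and 9 p53 targets an unadjusted p under 0.05. The 9 include Tnfrsf10b and Eda2r, which passed the filter only through their siNF45 arrays. Tnfrsf10b is also 1 of the 4 that passed after centring. Both genes were tested in the fits without 1 array as well. Leaving out 1 array gave 0 to 0 genes and 0 to 0 p53 targets by limma in the 4 fits, where a lone array takes its spread from the remaining pair, and 1236 to 1670 genes and 6 to 8 p53 targets had an unadjusted p under 0.05. Whether same-numbered samples were handled together is not known, and the correlation of their deviations within the groups was 0.0062 over genes. The median of the 30 p53 targets was 0.22 after quantile normalization, 0.33 after centring, and 0.14 to 0.24 without 1 array. Below the filter, Trp53cor1 ran from -0.06 to 0.18 and Trp73 from -0.025 to 0.185 over the fits that left out 1 array. The following differences of tested genes, all with intervals that span 0, turned sign. After centring Btg2 was 0.045, Rrm2b 0.065 and Mdm4 0.115, and after quantile normalization Mdm4 was 0.041. Over the fits that left out 1 array, Btg2 ran from -0.24 to 0.07, Rrm2b from -0.16 to 0.03, Ckap2 from -0.055 to 0.115, Ei24 from -0.055 to 0.255, Tap1 from -0.025 to 0.565 and Mdm4 from -0.17 to 0.14. Of 366 alternative values of single p53 targets and Ilf2, 338 kept their direction and their side of the threshold, or moved by less than the spread between replicates. Much of this count was fixed in advance. The signal filter, the eBayes prior and the replicate block cannot change a difference, nor can averaging where a gene has 1 probe set. No detection call was used, so signal and background are not separated for members near the filter.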
